A study of Mus musculus with 11 samples.

Results

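Proteasome genes were taken as all genes on the arrays whose official mouse symbol begins with Psma, Psmb, Psmc, Psmd or Psme followed by a digit. The rule found 44 of the 18193 genes that could be named, on 91 probe sets, and each gene was represented by its brightest probe set. The 44 genes comprise 14 constitutive subunits of the core particle, 3 inducible catalytic subunits, 2 tissue-restricted core subunits, 17 subunits of the regulatory particle, 3 chaperones of regulatory particle assembly and 3 activator caps. The symbol rule also took in 2 genes that encode no subunit, Psmc3ip and Psme3ip1. The probe set for the activator cap Psme2 carries a second symbol and was therefore not counted.

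Hearts of mouse embryos at embryonic day 9.5 were pooled by genotype and measured on 11 one-colour oligonucleotide arrays. The conditional knockout (CKO) group carried 2 floxed alleles of Gata4, a zinc-finger transcription factor gene of the early heart, and 1 Cre allele at Nkx2-5, which encodes a homeodomain factor made in heart progenitors and heart muscle (Gata4 flox/flox; Nkx2-5 cre/+, n = 5 arrays). The double heterozygous group carried 1 floxed Gata4 allele and 1 Nkx2-5 Cre allele (Gata4 flox/+; Nkx2-5 cre/+, n = 3). The control group carried 1 floxed Gata4 allele and no Cre (Gata4 flox/+; Nkx2-5 +/+, n = 3). All groups therefore had at least 1 floxed Gata4 allele, and the Cre-carrying groups also had 1 disrupted Nkx2-5 allele. Cre acts where Nkx2-5 is active, so cells of the pooled hearts outside that domain keep the gene. Whether each replicate was its own pool or litter is not stated in the labels. The p-values therefore cover only the spread among these arrays, part or all of which may be technical.

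The proteasome is the protease complex that degrades proteins tagged with ubiquitin. Its barrel-shaped core particle is built of stacked rings, outer rings of alpha subunits that gate the entrance and inner rings of beta subunits, some of which carry the proteolytic sites. The regulatory particle sits on the end of the barrel, where its base, a ring of ATPases with scaffold and ubiquitin-receptor subunits, unfolds the substrate, and its lid removes the ubiquitin chain. The subunits are present in fixed proportions in the complex, and their genes are known to be expressed together in dividing and protein-synthesising cells.

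Upstream sequences are shown for 4 members that are described below, and the expression results do not use these sequences. Psma7 is the member that passed the test, and Psmb8 is an inducible catalytic subunit that was dim in every array. Psmd14 and Psmd6 are lid subunits whose CKO arrays lay below all others, for Psmd6 on its brighter probe set only. Neither passed the test. Each is the 250 bases before the annotated start of the gene, 5′ to 3′ on the gene's strand, from RefSeq on GRCm38.p6. The positions are chr2:180042465-180042714 on the minus strand for Psma7, chr2:61711444-61711693 on the plus strand for Psmd14, chr14:14120946-14121195 on the minus strand for Psmd6 and chr17:34197945-34198194 on the plus strand for Psmb8. Capitals mark matches on either strand to TGACNNNGC (the antioxidant response element), CCAAT (NF-Y), CCGGAAG (ETS factors) and GGGCGG (SP1 and KLF factors), and neighbouring matches can overlap.
Psma7: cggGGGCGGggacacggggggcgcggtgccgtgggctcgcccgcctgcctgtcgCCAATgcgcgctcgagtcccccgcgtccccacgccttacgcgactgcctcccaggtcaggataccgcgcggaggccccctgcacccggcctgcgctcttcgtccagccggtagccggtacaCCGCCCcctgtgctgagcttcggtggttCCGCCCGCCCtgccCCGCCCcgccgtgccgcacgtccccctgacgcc
Psmd14: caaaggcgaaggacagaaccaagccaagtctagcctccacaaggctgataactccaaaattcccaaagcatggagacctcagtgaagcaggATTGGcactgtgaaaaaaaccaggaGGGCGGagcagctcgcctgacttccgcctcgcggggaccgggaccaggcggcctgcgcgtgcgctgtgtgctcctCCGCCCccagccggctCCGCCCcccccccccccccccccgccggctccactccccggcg
Psmd6: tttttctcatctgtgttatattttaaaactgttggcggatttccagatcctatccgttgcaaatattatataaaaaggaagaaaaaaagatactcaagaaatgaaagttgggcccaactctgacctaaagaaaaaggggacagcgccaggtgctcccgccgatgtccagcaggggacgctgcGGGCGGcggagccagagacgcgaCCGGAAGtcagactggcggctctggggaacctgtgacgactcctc
Psmb8: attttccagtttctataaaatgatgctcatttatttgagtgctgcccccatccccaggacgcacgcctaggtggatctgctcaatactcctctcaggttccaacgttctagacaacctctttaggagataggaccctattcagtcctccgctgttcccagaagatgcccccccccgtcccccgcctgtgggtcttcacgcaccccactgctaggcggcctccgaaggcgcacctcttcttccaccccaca

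The Psma7 stretch held 1 CCAAT match, 196 bases before the start, and 5 GGGCGG matches, 2 of which overlap. The Psmd14 stretch held 1 CCAAT match, on the other strand at 159 bases, and 3 GGGCGG matches. The Psmd6 stretch held 1 CCGGAAG match, 45 bases before the start, and 1 GGGCGG match. None of the capitalised motifs was found in the Psmb8 stretch. RefSeq promoters were held for 37 of the 44 members. Entries for Psma8, Psmb1, Psmb2, Psmb7, Psmc3, Psmd3 and Psmd7 are missing.

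CCGGAAG was found in 8 of 14 regulatory particle promoters and in 0 of 11 core particle promoters. Over all classes 11 of 37 members (29.7%) held it, beside 6.91% of all 32851 promoters and 10.7% of the promoters of 14452 genes on the array. For members the window nearest the gene's annotated 5′ end was used. For genes of the array the window lowest in chromosome coordinates was used, and all 32851 promoters can include several per gene. These shares and those below therefore compare unlike windows. Besides Psmd6, the regulatory particle genes with a match were Psmc1, Psmc2, Psmc6, Psmd2, Psmd4, Psmd11 and Psmd12. GGGCGG was found in 21 of 37 members (56.8%), beside 49.3% of the array's genes, and CCAAT in 16 (43.2%), beside 35.5%. TGACNNNGC was found in 5 members (13.5%), beside 11.6% of the array's genes. These were Psmb5, Psmb6, Psmc6, Psmd9 and Psmd12. Of the other motifs searched on both strands, TATAAA was found in 4 members (10.8%), beside 8.95% of the array's genes, CGGTGACC in 1, beside 0.803%, and ATGGCGGC in 0, beside 1.41%. A match describes the letters only, and the motifs were chosen with the members known.

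Values below are log2(intensity + 16) after quantile normalisation, on which a deposited intensity of 0 reads 4. Differences are log2 fold changes on that scale, with the first-named group on top. A gene was called at an adjusted p under 0.05 (limma, Benjamini-Hochberg over 45037 probe sets). The brighter probe set of the targeted gene, Gata4, read 9.28 to 9.53 in CKO-labelled arrays, 9.21 to 9.40 in double heterozygous arrays and 8.77 to 9.09 in control arrays, and the CKO-labelled arrays were called higher than the control arrays (0.45, adjusted p = 0.0321, limma). Its other probe set read 6.42 in CKO replicate 2 and 8.26 to 8.81 in the other CKO-labelled arrays, 8.27 to 8.65 in double heterozygous arrays and 7.98 to 8.15 in control arrays (0.08, adjusted p = 0.958). It is not stated whether these probe sets fall inside the floxed stretch, so the signal is no check of the genotype, and the name CKO-labelled is used here. Mean deposited intensity was 117.2 in CKO replicate 3 and 166.4 to 175.6 elsewhere. The beta-actin probe sets at the 3′ and 5′ ends differed by 1.0 on the log2 scale in CKO replicate 2 and by 0.295 to 0.450 elsewhere. Of 10 cardiomyocyte markers 0 were near 0, Myh7, a heavy chain of cardiac myosin, was called higher against control (0.27, adjusted p = 0.0154, limma) and 0 were called lower. Their summed intensity was 53660 to 56990 in CKO-labelled, 54730 to 56420 in double heterozygous and 54820 to 55110 in control arrays.

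Between CKO-labelled and control arrays, proteasome genes were mostly a little lower, and 1 of them passed the test. Psma7 was called lower and 0 members were called higher, where 0.841% of all named genes were called lower and 1.25% higher. The median difference over the 44 members was -0.14, beside -0.02 over all genes. Of the members 38 had a difference below 0, as did 53.2% of all genes. At an unadjusted p under 0.05, 10 members were lower and 0 higher, where 9.14% of all genes were lower and 6.35% higher. Among the 1895 genes with a mean of at least 9, 18.5% were lower at that p, as were 7 of the 33 members that bright, so the members' share is near that of bright genes. All 5 CKO-labelled arrays lay below all 3 control arrays for 9 members, or 20.5% of them, beside 7.55% of all genes, and above them for 0, beside 4.7%. Among the bright genes that share was 14.9%, and 7 of the 33 bright members were so placed. The median difference of those bright genes was -0.04. In bulk tissue, fewer cells of a type and less RNA per cell cannot be told apart.

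**Figure D1:**
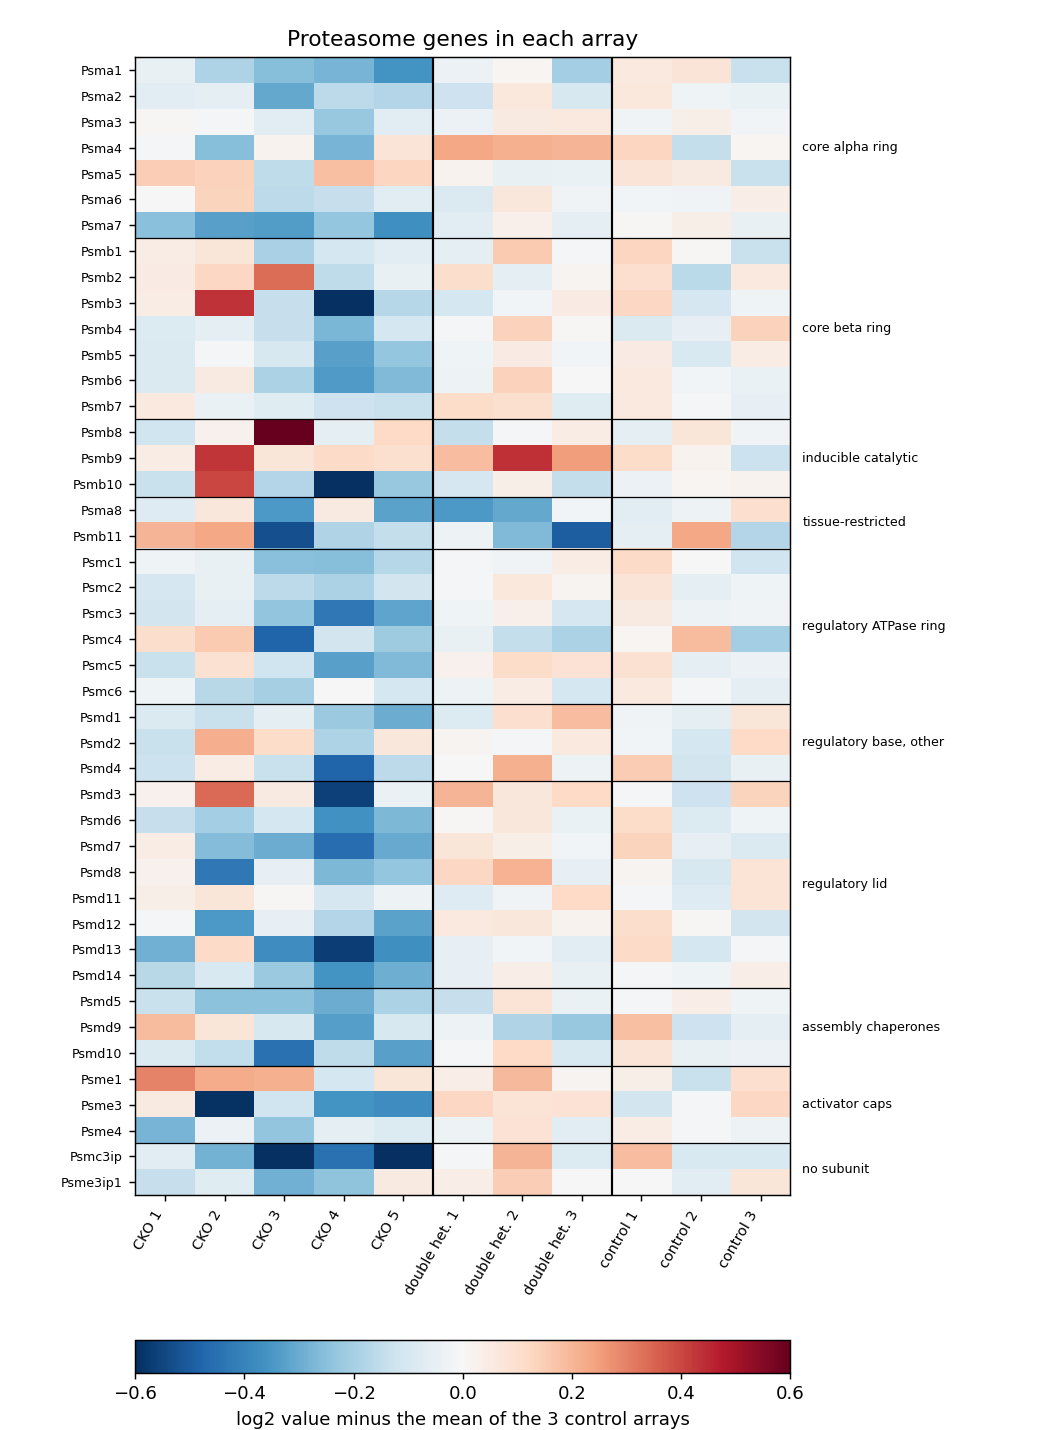
Each row is 1 of the 44 proteasome genes and each column 1 of the 11 arrays, with CKO-labelled arrays at the left, double heterozygous (het.) arrays in the middle and control arrays at the right. Colour gives the log2 value minus the mean of the 3 control arrays, blue lower and red higher, and values beyond 0.6 in either direction take the end colour. CKO replicates 4 and 5 are blue in most rows, with 41 and 37 of 44 genes below the control mean, while CKO replicate 2 has 24.

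The CKO-labelled arrays did not share the shift equally. CKO replicates 1 to 5 had 28, 24, 36, 41 and 37 of the 44 members below the control mean. Double heterozygous replicates 1 to 3 had 29, 12 and 25, and control replicates 1 to 3 had 15, 31 and 28. CKO replicates 1 and 2 thus overlapped the double heterozygous and control arrays, and replicates 3, 4 and 5 lay beyond them. Without CKO replicates 2 and 3, which stand apart in quality, 41 of the 44 members had a difference below 0. Their median was -0.15. The share of all genes below 0 was not computed in that setting. Over the 24 alternative settings, this one among them, the median of all genes lay between -0.08 and -0.01.

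Psma7, an alpha subunit of the core particle, was the member with the smallest p. It read 10.09, 10.02, 10.01, 10.11 and 9.98 in CKO-labelled arrays, 10.28, 10.38 and 10.29 in double heterozygous arrays and 10.35, 10.38 and 10.30 in control arrays. All 5 CKO-labelled arrays lay below all 6 other arrays, which overlapped with each other. The means were 10.04 ± 0.058 in CKO-labelled (SD, n = 5), 10.31 ± 0.056 in double heterozygous (n = 3) and 10.35 ± 0.041 in control arrays (n = 3). Psma7 fell to a ratio of 0.810 of the control level in CKO-labelled arrays, a log2 fold change of -0.30 (SE 0.066, limma adjusted p = 0.0334). Against double heterozygous arrays the difference was -0.27 (SE 0.066, adjusted p = 0.106, limma), which did not pass. Its other probe set read 10.04, 9.99, 10.07, 10.22 and 10.07 in CKO-labelled arrays, 10.19, 10.14 and 10.17 in double heterozygous arrays and 10.27, 10.32 and 10.36 in control arrays. On that probe set the CKO-labelled arrays again lay below the control arrays (-0.24, adjusted p = 0.116) but overlapped the double heterozygous ones (-0.09). The call against control was lost in 11 of 24 alternative settings, whose adjusted p ran between 0.0072 and 0.346 while the difference stayed between -0.47 and -0.27. It was lost without control replicate 1 (adjusted p = 0.174), control replicate 2 (adjusted p = 0.196), control replicate 3 (adjusted p = 0.112), double heterozygous replicate 1 (adjusted p = 0.0625), double heterozygous replicate 3 (adjusted p = 0.0570) or CKO replicate 5 (adjusted p = 0.0963).

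**Figure D2:**
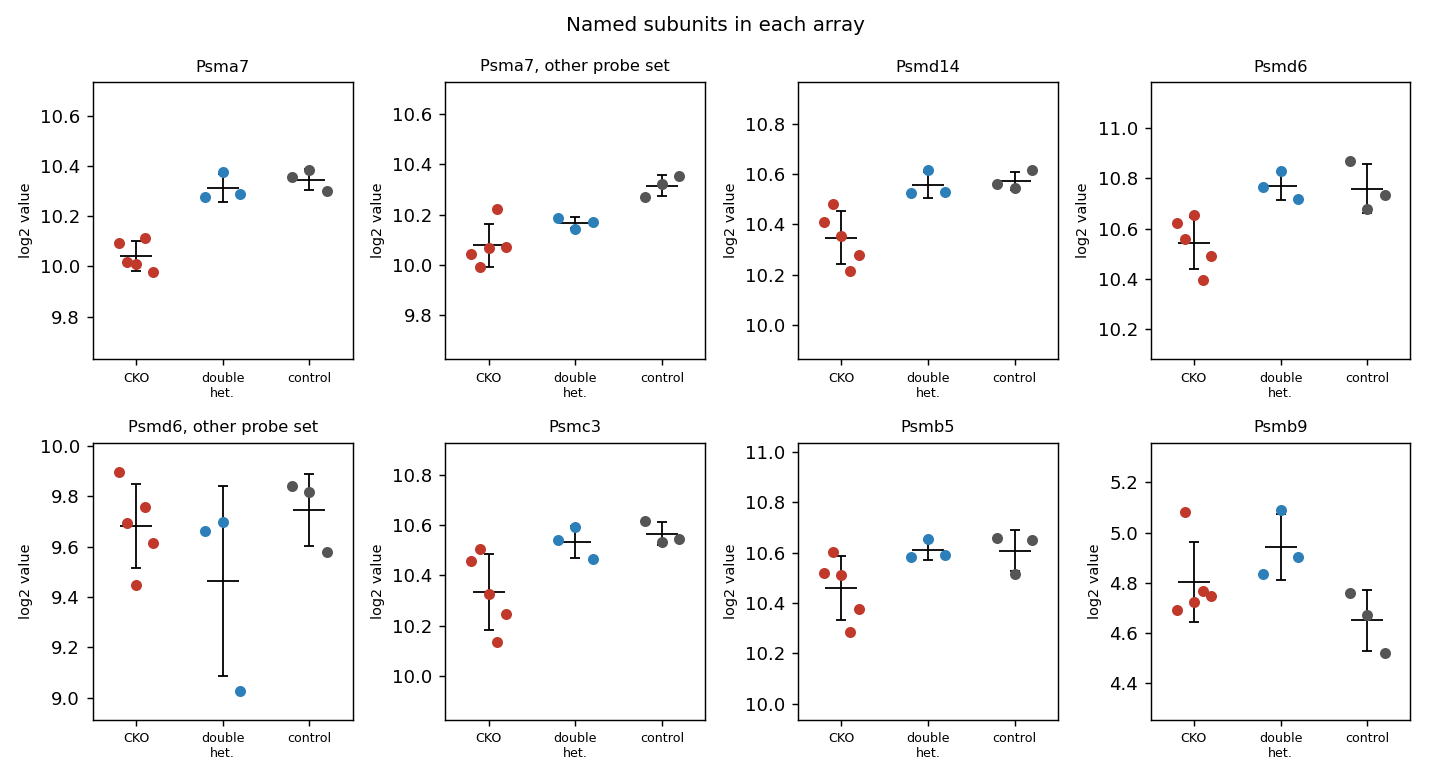
Log2 values of selected proteasome probe sets in each array, with points for arrays, a horizontal bar for the group mean and whiskers for 1 SD (n = 5 CKO-labelled, 3 double heterozygous, 3 control). Every panel spans the same height on the log2 scale. For the first Psma7 probe set and Psmd14 all CKO-labelled points lie below all other points. The second Psma7 probe set overlaps between CKO-labelled and double heterozygous arrays, and the second Psmd6 probe set and Psmb9 overlap between CKO-labelled and control arrays.

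Among the other alpha subunits, which form the gated outer rings, none passed the test. Over all 7 alpha subunits, Psma7 included, the median difference between CKO-labelled and control arrays was -0.09, with 6 below 0. Psma2 read 10.65, 10.65, 10.40, 10.55 and 10.53 in CKO-labelled arrays, 10.59, 10.77 and 10.61 in double heterozygous arrays and 10.77, 10.68 and 10.67 in control arrays. Its CKO-labelled arrays lay just below the control arrays and overlapped the double heterozygous ones (-0.15, adjusted p = 0.399). Psma4 read 11.21, 10.97, 11.24, 10.95 and 11.30 in CKO-labelled arrays, 11.46, 11.43 and 11.42 in double heterozygous arrays and 11.35, 11.08 and 11.24 in control arrays. Here the double heterozygous arrays stood above both other groups, and the CKO-labelled and control arrays overlapped (-0.09, adjusted p = 0.742). Psma5 was the 1 alpha subunit with a positive difference. It read 10.62, 10.61, 10.32, 10.66 and 10.61 in CKO-labelled arrays, 10.50, 10.43 and 10.44 in double heterozygous arrays and 10.55, 10.53 and 10.34 in control arrays (0.09, adjusted p = 0.719). A second bright Psma5 probe set was at -0.05. Psma1 was at -0.22 (adjusted p = 0.227), and Psma3 and Psma6 lay between -0.07 and -0.05.

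The beta subunits, which include the constitutive proteolytic sites, had a median difference of -0.09 with 0 of 7 called and 6 below 0. Psmb5, the chymotrypsin-like site, read 10.52, 10.60, 10.51, 10.28 and 10.38 in CKO-labelled arrays, 10.58, 10.65 and 10.59 in double heterozygous arrays and 10.66, 10.51 and 10.65 in control arrays. Psmb6, the caspase-like site, read 10.64, 10.78, 10.54, 10.38 and 10.46 in CKO-labelled arrays, 10.69, 10.86 and 10.73 in double heterozygous arrays and 10.78, 10.71 and 10.68 in control arrays. Psmb7, the trypsin-like site, read 11.14, 11.04, 11.01, 10.95 and 10.95 in CKO-labelled arrays, 11.19, 11.18 and 11.01 in double heterozygous arrays and 11.14, 11.07 and 11.03 in control arrays. CKO replicates 4 and 5 were the lowest of all 11 arrays for each of these genes, and the groups overlapped. The differences from control were -0.15 (adjusted p = 0.445) for Psmb5, -0.17 (adjusted p = 0.428) for Psmb6 and -0.06 (adjusted p = 0.764) for Psmb7. The non-catalytic Psmb3 was the least even beta subunit, with CKO-labelled arrays between 9.24 and 10.28 and control arrays between 9.74 and 9.97 (-0.09), and its other probe set was at -0.31 (adjusted p = 0.299). Psmb1, Psmb2 and Psmb4 lay between -0.13 and 0.06.

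The inducible catalytic subunits replace these sites in the immunoproteasome of interferon-treated and immune cells. Psmb8, which replaces Psmb5, read 5.45, 5.60, 6.19, 5.51 and 5.69 in CKO-labelled arrays, 5.43, 5.56 and 5.62 in double heterozygous arrays and 5.52, 5.64 and 5.55 in control arrays. Psmb9, which replaces Psmb6, read 4.69, 5.08, 4.72, 4.77 and 4.75 in CKO-labelled arrays, 4.84, 5.09 and 4.90 in double heterozygous arrays and 4.76, 4.67 and 4.52 in control arrays. Psmb9 was near the value of 4 that a deposited 0 takes, Psmb8 was dim but above it, and for both the CKO-labelled and control arrays overlapped. Psmb10, which replaces Psmb7, read 7.05, 7.58, 7.0, 6.46 and 6.95 in CKO-labelled arrays, 7.08, 7.22 and 7.04 in double heterozygous arrays and 7.15, 7.19 and 7.20 in control arrays, with CKO replicate 2 highest and replicate 4 lowest. The differences from control were 0.12 (adjusted p = 0.835), 0.15 (adjusted p = 0.721) and -0.17 (adjusted p = 0.756) for Psmb8, Psmb9 and Psmb10, and the other Psmb8 probe set was at -0.28. Of 10 measured genes of the interferon response, which induces these subunits, 0 were called in any comparison and 0 had an unadjusted p under 0.05 against control (median -0.02). Irf1, an interferon-induced transcription factor, was at -0.20 (adjusted p = 0.613). Leukocyte markers summed to 332.1 to 428 in CKO-labelled, 294.2 to 356.4 in double heterozygous and 344.3 to 371.5 in control arrays, with 0 of 8 called.

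The core subunits restricted to single tissues were dim here. Psma8, known from the testis, read 5.25, 5.39, 4.98, 5.38 and 5.00 in CKO-labelled arrays, 4.98, 5.02 and 5.31 in double heterozygous arrays and 5.26, 5.29 and 5.42 in control arrays. Psmb11, known from the thymus, read 4.74, 4.77, 4.0, 4.35 and 4.39 in CKO-labelled arrays, 4.51, 4.27 and 4.04 in double heterozygous arrays and 4.48, 4.77 and 4.36 in control arrays. Groups overlapped for both genes, and neither passed the test in any comparison.

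In the regulatory particle, 16 of 17 subunits had lower means in CKO-labelled than in control arrays, and 0 were called. The median difference was -0.16, and 5 subunits were lower and 0 higher at an unadjusted p under 0.05, beside the 9.14% lower among all genes and 18.5% among bright genes. The ATPase ring, which unfolds substrates, had all 6 members below 0 with a median of -0.14. Psmc3 was the 1 ATPase gene whose CKO-labelled arrays all lay below the control arrays, and it overlapped the double heterozygous ones. It read 10.46, 10.51, 10.33, 10.13 and 10.25 in CKO-labelled arrays, 10.54, 10.59 and 10.46 in double heterozygous arrays and 10.62, 10.53 and 10.54 in control arrays (-0.23, SE 0.083, adjusted p = 0.219, limma). The other ATPase genes lay between -0.15 and -0.10 on their brightest probe sets. Psmc4 was widest, between 9.47 and 10.11 in CKO-labelled arrays and between 9.75 and 10.14 in control arrays. The next brightest probe sets fell outside that range, at -0.19 for Psmc2, -0.21 for Psmc4 and -0.30 for Psmc6. That of Psmc1, which was much dimmer, was at 0.11. None of these passed the test.

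The base also holds scaffold and receptor subunits without ATPase activity. Psmd1, a scaffold of the base, read 10.32, 10.28, 10.35, 10.19 and 10.12 in CKO-labelled arrays, 10.33, 10.51 and 10.60 in double heterozygous arrays and 10.39, 10.36 and 10.49 in control arrays. The CKO-labelled arrays lay below the control arrays and overlapped the double heterozygous ones (-0.16, adjusted p = 0.413). Psmd4, a ubiquitin receptor, was at -0.17 (adjusted p = 0.538) and Psmd2, the other scaffold, at 0.02 (adjusted p = 0.967). Psmd2 was the 1 regulatory particle gene with a positive difference from control.

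The lid had the lowest median of the structural groups, -0.20, with all 8 members below 0. Outside these groups, the 3 chaperones of base assembly had a median of -0.22. Psmd14, the enzyme that cuts the ubiquitin chain from the substrate, read 10.41, 10.48, 10.35, 10.21 and 10.28 in CKO-labelled arrays, 10.52, 10.62 and 10.53 in double heterozygous arrays and 10.56, 10.55 and 10.61 in control arrays. All 5 CKO-labelled arrays lay below all 6 others, but the difference from control did not pass the test (-0.23, SE 0.071, adjusted p = 0.149, limma). Psmd6, a scaffold subunit of the lid, read 10.62, 10.56, 10.66, 10.40 and 10.49 in CKO-labelled arrays, 10.77, 10.83 and 10.72 in double heterozygous arrays and 10.87, 10.68 and 10.73 in control arrays. It showed the same separation on that probe set (-0.22, SE 0.074, adjusted p = 0.192, limma). On its other probe set the CKO-labelled arrays read 9.90, 9.69, 9.45, 9.76 and 9.62, the double heterozygous arrays 9.66, 9.70 and 9.03 and the control arrays 9.84, 9.82 and 9.58. There the groups overlapped and the difference was -0.06, so the 2 Psmd6 probe sets disagree in size. Psmd13 had the lowest mean difference of the lid, -0.30 (adjusted p = 0.299), with 4 CKO-labelled arrays between 8.72 and 8.99, CKO replicate 2 at 9.40, and control arrays between 9.18 and 9.40. Without CKO replicate 2 its difference was -0.40 and passed (adjusted p = 0.0256, limma). Its next brightest probe set was at -0.13 over all arrays (adjusted p = 0.740). Psmd7, the partner of Psmd14, was at -0.25 (adjusted p = 0.279). Psmd8 read 9.88, 9.43, 9.81, 9.59 and 9.63 in CKO-labelled arrays, 9.98, 10.07 and 9.81 in double heterozygous arrays and 9.88, 9.76 and 9.94 in control arrays (-0.19, adjusted p = 0.455). Psmd12 was at -0.18, Psmd3 at -0.04 and Psmd11 at -0.00. The next brightest Psmd11 probe sets were at -0.06, 0.12 and 0.14, and none of them passed the test.

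Chaperones of base assembly bind the ATPases before the regulatory particle is complete. Psmd5 read 8.48, 8.37, 8.37, 8.32 and 8.42 in CKO-labelled arrays, 8.48, 8.70 and 8.58 in double heterozygous arrays and 8.60, 8.65 and 8.59 in control arrays. Psmd10, also called gankyrin, read 7.56, 7.50, 7.20, 7.49 and 7.32 in CKO-labelled arrays, 7.63, 7.77 and 7.55 in double heterozygous arrays and 7.73, 7.60 and 7.61 in control arrays. For both the CKO-labelled arrays lay below the control arrays, without passing the test (-0.22, adjusted p = 0.256, for Psmd5 and -0.23, adjusted p = 0.385, for Psmd10). Psmd9 read 7.43, 7.31, 7.14, 6.91 and 7.15 in CKO-labelled arrays, 7.21, 7.06 and 7.01 in double heterozygous arrays and 7.42, 7.11 and 7.18 in control arrays, with overlap (-0.05, adjusted p = 0.913).

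Activator caps open the core particle without ubiquitin. Psme1, a subunit of the interferon-inducible cap, read 9.74, 9.67, 9.66, 9.34 and 9.52 in CKO-labelled arrays, 9.48, 9.64 and 9.46 in double heterozygous arrays and 9.48, 9.31 and 9.55 in control arrays. Its difference was positive and the groups overlapped (0.14, adjusted p = 0.601). Psme4, a large single-chain cap, read 9.44, 9.68, 9.48, 9.66 and 9.63 in CKO-labelled arrays, 9.69, 9.80 and 9.65 in double heterozygous arrays and 9.76, 9.70 and 9.69 in control arrays. The CKO-labelled arrays lay just below the control arrays (-0.14, adjusted p = 0.501), and its other bright probe sets were at -0.19 and -0.33. Psme3, a nuclear cap, was at -0.28 (adjusted p = 0.353), with CKO replicate 2 lowest at 8.0. Of the genes that encode no subunit, Psmc3ip, a protein of meiotic recombination, read 7.04, 6.82, 6.40, 6.66 and 6.50 in CKO-labelled arrays, 7.09, 7.31 and 7.03 in double heterozygous arrays and 7.29, 7.02 and 7.01 in control arrays. Of its CKO-labelled arrays 4 lay below all other arrays, and it had the lowest difference among the probe sets that stand for the members without passing the test (-0.42, adjusted p = 0.203). Its other probe set, almost as bright, was at -0.19 (adjusted p = 0.618). Psme3ip1, which encodes a protein that binds Psme3, was at -0.14.

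**Figure D3:**
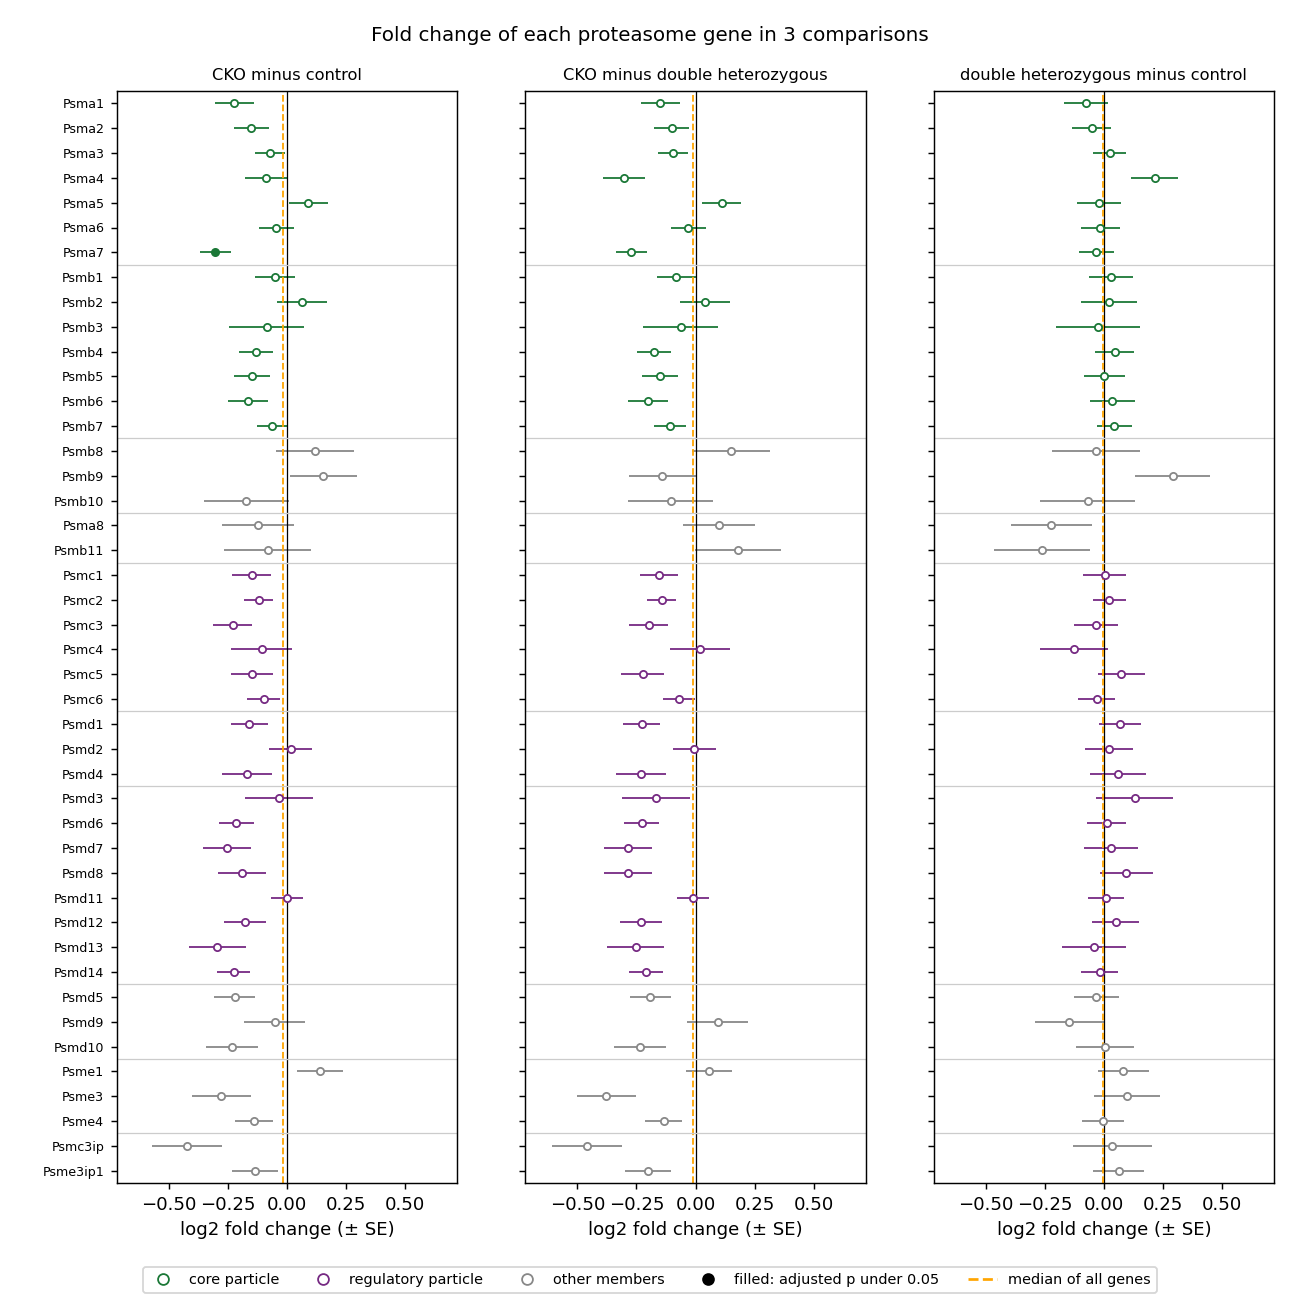
Log2 fold change of each of the 44 genes in CKO minus control (left), CKO minus double heterozygous (middle) and double heterozygous minus control (right), with whiskers of 1 SE from limma. Green marks the core particle, purple the regulatory particle and grey the other members, a filled point an adjusted p under 0.05, and the dashed line the median of all genes. In the left panel 38 points lie below 0 and 1, Psma7, is filled, and the right panel is spread around 0.

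Other genes of the system outside the symbol rule were measured alongside. Of 18 such partners (core assembly chaperones, deubiquitinases, shuttle receptors and the segregase Vcp with its cofactors), 14 had a difference from control below 0, with a median of -0.12 and 0 called. The median over all genes was -0.02. At an unadjusted p under 0.05, 2 partners were lower and 1 higher, beside 9.14% and 6.35% of all genes. Uchl5, a deubiquitinase bound to the regulatory particle, was at -0.25 (adjusted p = 0.191), Ufd1, a cofactor of Vcp, at -0.25 (adjusted p = 0.320) and the shuttle receptor Ubqln2 at 0.19 (adjusted p = 0.345). Of 12 measured regulators of proteasome gene transcription 0 were called, with a median of 0.17. Of these 4 were higher and 0 lower at an unadjusted p under 0.05, beside 6.35% and 9.14% of all genes. Stat3 was at 0.46 (adjusted p = 0.0554), and its CKO-labelled arrays lay above all others. Maff, at 0.55 (adjusted p = 0.255), and Mafg, at 0.39 (adjusted p = 0.198), encode small partners of the activators Nfe2l1 and Nfe2l2, which were at 0.19 (adjusted p = 0.716) and -0.14 (adjusted p = 0.571). Of the ubiquitin genes and activating enzymes 1 was measured, Uba6, at -0.17 (adjusted p = 0.505).

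Set against double heterozygous arrays, which also carry Cre and differ from the CKO group by 1 floxed allele, 0 members were called in either direction. Of all named genes 0.104% were called lower and 0.445% higher in this comparison. The median difference was -0.15, beside -0.01 over all genes, and 36 of 44 members lay below 0, as did 52.3% of all genes. At an unadjusted p under 0.05, 18 members were lower and 0 higher, where 7.5% of all genes were lower and 5.79% higher. Of the 33 bright members 14 were lower at that p, beside 16.4% of the bright genes. All CKO-labelled arrays lay below all double heterozygous arrays for 9 members, beside 5.54% of all genes and 12.9% of the genes with a mean of at least 9. They lay above them for 0 members, beside 3.65%. The 9 were Psma4, Psma7, Psmb4, Psmc1, Psmc2, Psmd6, Psmd12, Psmd14 and Psme3. The next brightest probe sets of Psma7, Psmb4 (0.10), Psmc1 (0.04), Psmd6 and Psme3 overlapped between these groups. That of Psmc2 again read lower in all CKO-labelled arrays (-0.24). This comparison shares its CKO-labelled arrays with the one against control, so the lists are not independent.

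The lowest differences from double heterozygous arrays were those of Psmc3ip (-0.46, adjusted p = 0.227), Psme3 (-0.38, adjusted p = 0.246) and Psma4 (-0.30, adjusted p = 0.180). The other Psmc3ip probe set was at -0.04. The next brightest Psme3 probe set overlapped, at 7.99 to 8.32 in CKO-labelled and 8.05 to 8.72 in double heterozygous arrays. Regulatory particle genes had a median of -0.21, with 16 of 17 below 0 and 10 lower at an unadjusted p under 0.05. Core particle genes had a median of -0.10, with 12 of 14 below 0 and 4 lower at an unadjusted p under 0.05. In the lid all 8 genes lay below 0, with a median of -0.23, of which Psmd8 was at -0.29, Psmd7 at -0.28, Psmd6 at -0.23 and Psmd14 at -0.21. The other Psmd6 probe set was at 0.22, with double heterozygous replicate 3 low at 9.03. Differences above 0 were those of Psmb11 (0.18), Psmb8 (0.15), Psma5 (0.11), Psma8 (0.10), Psmd9 (0.09), Psme1 (0.06), Psmb2 (0.04) and Psmc4 (0.02). None of these passed the test. The partners had a median of -0.16 with 14 of 18 below 0 and 0 called.

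Double heterozygous and control arrays were close in proteasome genes. These groups differ in Cre, in 1 Nkx2-5 allele and in whether the floxed Gata4 allele is exposed to Cre. Of the members 0 were called, as were 0% of all named genes, and 1 was higher and 0 lower at an unadjusted p under 0.05, where 1.33% of all genes were higher and 1.58% lower. The median difference was 0.01, with 18 of 44 members below 0, beside 51.2% of all genes. Psma4 was that 1 member (0.21, SE 0.099, unadjusted p = 0.0454 and adjusted p = 1.0, limma). Double heterozygous arrays lay above control arrays for Psma4 and Psmb9 (0.29, adjusted p = 1.0), or 2 members, beside 4.89% of all genes. They lay below them for 0, beside 6.22%. These counts hold for the brightest probe sets. On other probe sets with a mean of at least 7, double heterozygous arrays lay below control arrays for Psma7 (-0.15), Psmb4 (-0.14) and Psmc6 (-0.19). They lay above them for Psmd11 (0.20). None of these passed the test. Core and regulatory particle medians were 0.01 and 0.02. In the F-test over the 3 groups Psma7 was called (adjusted p = 0.0424), as were 1.47% of all genes.

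The core and regulatory particles were compared by a score, which averages over their genes the log2 value less that of the control group. No test is given for it, since the genes were chosen with results known. CKO replicates 1 to 5 had core scores of -0.020, 0.0011, -0.125, -0.218 and -0.131 and regulatory scores of -0.066, -0.043, -0.15, -0.297 and -0.201. Double heterozygous replicates 1 to 3 had core scores of -0.0074, 0.064 and -0.013 and regulatory scores of 0.0073, 0.049 and 0.00086. Control replicates 1 to 3 had core scores of 0.053, -0.029 and -0.024 and regulatory scores of 0.057, -0.045 and -0.012. In every CKO-labelled array the regulatory score was the lower of the pair, and an array low in one was low in the other. The regulatory minus core difference averaged -0.053 ± 0.022 in CKO-labelled (SD, n = 5), 0.0048 ± 0.017 in double heterozygous and 0 ± 0.015 in control arrays (SD, n = 3 each). All 5 CKO-labelled arrays lay between -0.079 and -0.025, below all 6 others, which lay between -0.016 and 0.015.

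**Figure D4:**
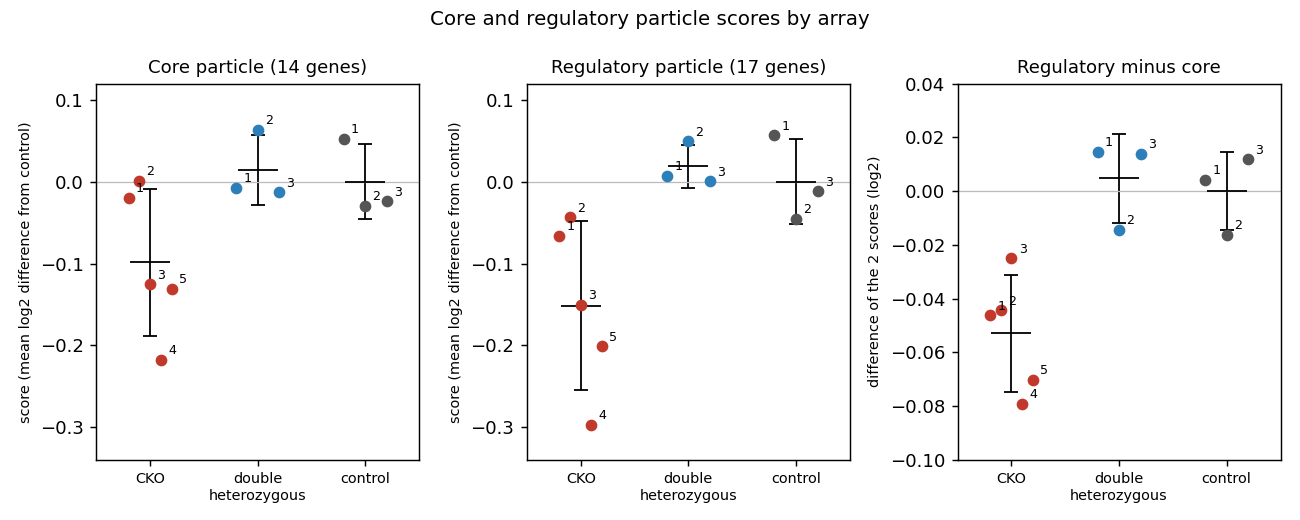
Scores of the 14 core particle genes (left), the 17 regulatory particle genes (middle) and their difference (right) in each array, numbered by replicate, with the group mean and whiskers of 1 SD (n = 5 CKO-labelled, 3 double heterozygous, 3 control). Core scores of CKO replicates 1 and 2 overlap the other groups, and in the right panel all CKO-labelled points, from -0.079 to -0.025, lie below all others.

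That separation was small and depended on the setting. It held with offsets of 1 and 64 in place of 16. With no further scaling of the deposited values, and likewise with arrays centred on their medians, the CKO-labelled arrays spanned -0.078 to -0.019 and the control arrays -0.023 to 0.013, which overlap. With _x_at and _s_at probe sets passed over, the highest CKO-labelled array was at -0.018 and the lowest control array at -0.022. With all probe sets of a gene averaged, CKO-labelled arrays spanned -0.069 to -0.017 and double heterozygous arrays -0.035 to -0.0048. The mean was below that of both other groups in each of these settings.

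The size of the shift depended on the scaling between arrays. On the deposited scale the median of the 44 members was -0.29 between CKO-labelled and control arrays, and with median centring -0.30, with 42 of 44 below 0 in both. All genes moved too, to medians of -0.07 and -0.08, and genes with a mean of at least 9 to -0.19 in both, of which 81.8% and 82.7% were below 0. Against double heterozygous arrays the members' medians were -0.28 and -0.33, and those of the bright genes -0.16 and -0.21. The members thus lay 0.10 to 0.12 below bright genes in all these settings, while their distance from 0 differed.

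**Figure D5:**
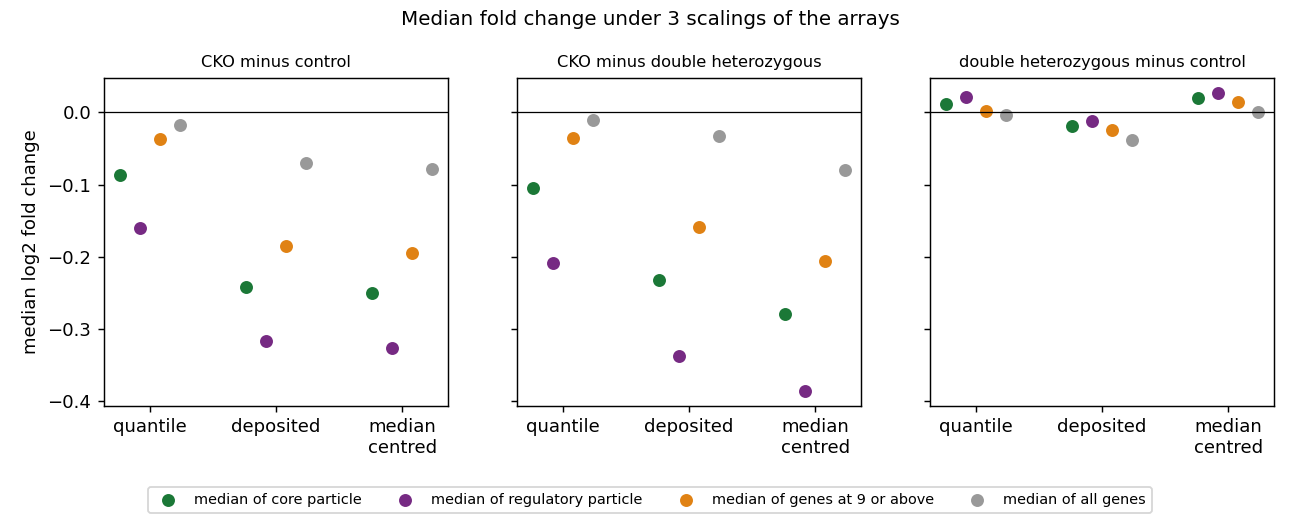
Median log2 fold change of the core particle, the regulatory particle, the 1895 genes with a mean log2 value of at least 9 and all 18193 genes, under quantile normalisation, on the deposited scale and with arrays centred on their medians, in CKO minus control (left), CKO minus double heterozygous (middle) and double heterozygous minus control (right). In the left and middle panels all medians are lower under the other scalings than under quantile normalisation, the bright genes at -0.16 to -0.21, and the regulatory particle stays lowest.

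Markers of other cell types differed between the groups beside these values. Endothelial and endocardial markers summed to 2369 to 2827 in CKO-labelled, 2101 to 2191 in double heterozygous and 2081 to 2184 in control arrays. Of 8 measured, Cdh5 and Kdr were called higher and Tek lower in CKO-labelled than in control arrays. Proepicardial and mesothelial markers summed to 357.4 to 919.5 in CKO-labelled, 532.6 to 814 in double heterozygous and 1061 to 1145 in control arrays, with Tcf21 and Lrrn4 of 7 called lower and Msln near 0 in every array. Markers of endoderm and epithelium summed to 2350 to 2955 in CKO-labelled, 1658 to 1955 in double heterozygous and 1443 to 1596 in control arrays, with Krt8, Krt18 and Sox17 of 8 called higher and Foxa2 near 0 in every array. Erythroid markers summed to 18680 to 24010 in CKO-labelled, 19370 to 22520 in double heterozygous and 19010 to 22240 in control arrays, with 0 of 7 called. Their part in the proteasome differences was not tested.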

How the data were processed

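Per the labels' protocols, TRIzol RNA of pooled hearts (50 ng) was amplified and biotin-labelled with an Ovation kit. Each deposited value is a linear intensity of 1 probe set, made by the authors with PLIER, which combines the probes of a set, per the submitters' processing notes. Its version and the background correction and scaling used are not given here. All 11 arrays were grouped by the genotype in their labels. No pair of arrays shared more than 0.828% identical values, so none was treated as a copy. Precision is limited by how many arrays there are.

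The deposited intensities were turned into log2(value + 16), an offset that shrinks the fold changes of dim genes. The 64 control probe sets were left out, and the arrays were quantile normalised, because their medians spanned 0.465 against a limit of 0.2. One coefficient per group was fitted to 45037 probe sets with limma 3.58.1 in R 4.3.3 (lmFit, eBayes with trend, two-sided). There were 8 residual degrees of freedom, or 15.07 after moderation. P-values were adjusted by Benjamini-Hochberg over all probe sets in each comparison, and the fit was tested on simulated data. An F-test over the 3 groups stands in for the one-way analysis that the series names.

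Symbols came from the platform's annotation, in which 34945 probe sets had 1 symbol, 932 several and 9160 none. The brightest probe set by mean stood for each gene. The members and all lists were chosen with earlier results of these data known. Values in every array are given for members called in any comparison, the 3 of smallest p in either direction where fewer than 3 were called, catalytic subunits and their replacements, and members whose CKO-labelled and control arrays did not overlap. Genes of other lists are named where called, and otherwise at most 3 per list by smallest p. Nfe2l1, Nfe2l2 and the remaining single members are named to complete their groups. Alternatives were other offsets (1 and 64), scalings, moderation, array weights, probe set rules, a filter at a mean of 7, a replicate block and arrays left out.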

Additional observations from a re-analysis of the deposited data

Results flagged for a closer look

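Of 26 sets of CKO-labelled values checked, the 23 members described in every array among them, 2 had 1 array far from the others, where chance gives about 1 in 20. For Psma5, CKO replicate 3 read 10.32, while the 4 other CKO-labelled arrays read up to 10.66 and the nearest 10.61, so that the gap was 0.847 of the range against a limit of 0.71. This is the array with the lowest mean deposited intensity. For Psmb9, CKO replicate 2 read 5.081, while the 4 others read down to 4.694 and the nearest 4.768, a gap of 0.808 of the range. This is the array with the widest beta-actin 3′ to 5′ difference, and Psmb9 was dim in all arrays.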

How the results depend on the processing

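The called difference of Psma7 kept its sign in all 24 alternatives, and 69 gene-level results (23 members in 3 comparisons) gave 11 lost calls, all of Psma7 between CKO-labelled and control arrays, and 3 gained ones. The 1 member called lower in that comparison became 0 on the deposited scale, with median centring, without an intensity trend, with only the 2 groups compared and with a replicate block. It became 4 with array weights, Psma7, Psmc3, Psmd13 and Psmd14, where 1301 of all 18193 named genes were called in either direction. It became 2 without CKO replicates 2 and 3, Psma7 and Psmd13, where 767 of all named genes were called. With single arrays left out it ranged from 0 to 2, and the count over all named genes from 113 to 519. Between CKO-labelled and double heterozygous arrays the filter at a mean of 7 gave 1 in place of 0, Psma7 (adjusted p = 0.0364, limma). With that filter 217 genes of the whole array were called. In the same comparison 0 members were called without variance moderation, where 1 of all named genes was called. The F-test call became 0 on the deposited scale, with median centring, without an intensity trend and with a replicate block, 2 with array weights, and 0 to 2 with single arrays left out.

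With no further scaling and with median centring the core particle medians were -0.24 and -0.25 for CKO-labelled minus control and -0.23 and -0.28 for CKO-labelled minus double heterozygous arrays. Those of the regulatory particle were -0.32 and -0.33, and -0.34 and -0.39. In CKO-labelled minus double heterozygous arrays the regulatory median was -0.12 with all probe sets of a gene averaged and -0.13 with the replicate block. With single arrays left out, the core median ranged from -0.15 to -0.04 and the regulatory median from -0.19 to -0.10 against control. Of all named genes 381 were called in CKO-labelled minus control arrays, against 56 with no further scaling, 205 with median centring and 1301 with array weights, and 100 in CKO-labelled minus double heterozygous arrays, against 1 without variance moderation and 379 without CKO replicates 2 and 3. Same-numbered arrays deviated from their group means with correlations of -0.0557 to 0.15. Of the 9 arrays with a shared number, 3 correlated best with their own number in both other groups. These values do not settle whether the labels' replicate numbers pair the arrays. With the replicate block Psma7 was at -0.31 (adjusted p = 0.117, limma). The cause of these changes was not tested. No detection calls were given, so how far the dim Psma8, Psmb8, Psmb9 and Psmb11 lay over background is unknown.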
